A study of Mus musculus with 12 samples.

Results

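A group of 6 genes of the circadian output were followed in the kidney of mice treated with cannabidiol (CBD): Wee1, Usp2, Noct, Tspan4, Lonrf3 and Coq10b. They were chosen by symbol as genes whose transcript is known to cycle over the day in many mouse tissues but which are not part of the core feedback loop of the clock. The choice was made with earlier results of these data known. The files list 57180 genes, and all 6 members of the list were found in them by Ensembl identifier. All 6 also passed the filter on low counts that left 17163 genes for testing.

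The mice were males of the C57BL/6J strain with no engineered allele named, starting at an age of 60 days, and they received 1 intraperitoneal injection a day for 28 days. The Control group (4 mice) was injected with saline and Tween 80 only, and the same vehicle carried 10 mg CBD/kg b.w. in the 10CBD group (4 mice) and 20 mg CBD/kg b.w. in the 20CBD group (4 mice). Poly(A) RNA of a piece of kidney from each mouse was sequenced as 1 library, with 15417867 to 23532088 counts on genes per library. The sources used here do not give the hour of killing.

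The mammalian clock is a feedback loop in which the activators Bmal1 and Clock drive the genes of their own repressors, the Per and Cry families. The same activators, acting through E-box sequences, and factors such as Dbp, which binds D-box sequences, also drive output genes that carry the time of day into cell division, RNA turnover, protein degradation and metabolism. Outputs of this kind differ between tissues, and in the kidney the clock is known for its part in the daily rhythm of filtration and of salt handling by the tubules.

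To show what lies before the start of these genes, RefSeq promoter windows (table of GRCm38.p6) were matched by exact sequence to GRCm39. The table held an entry for 5 of the 6 genes, with 6 windows in all, and none for Wee1. Both strands of the 250 bases before each start were searched for the E-box CACGTG, for CACGTT, for the D-boxes TTATGTAA and TTACGTAA, for the cAMP response element TGACGTCA and for ACANNNTGT, a core of the glucocorticoid response element. None of these motifs overlapped another in the windows printed here. The sequences below are read 5′ to 3′ on the + strand, on which all 6 genes lie, with motif letters in capitals, and only a short stretch around the motif is given where it lies within an annotated exon.
Coq10b, chr1:55091679-55091922: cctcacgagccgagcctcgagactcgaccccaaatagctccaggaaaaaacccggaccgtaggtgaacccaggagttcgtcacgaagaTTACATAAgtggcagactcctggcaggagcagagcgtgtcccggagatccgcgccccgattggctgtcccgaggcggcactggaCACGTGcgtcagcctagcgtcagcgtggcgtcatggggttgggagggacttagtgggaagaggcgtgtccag
Lonrf3, chrX:35592005-35592034: cgtggtaggagtCACGTGgttgcgttttat
Tspan4, second start, chr7:141056230-141056259: cccccatggagcCACGTGcagagccacgag
Usp2, chr9:43995967-43996216: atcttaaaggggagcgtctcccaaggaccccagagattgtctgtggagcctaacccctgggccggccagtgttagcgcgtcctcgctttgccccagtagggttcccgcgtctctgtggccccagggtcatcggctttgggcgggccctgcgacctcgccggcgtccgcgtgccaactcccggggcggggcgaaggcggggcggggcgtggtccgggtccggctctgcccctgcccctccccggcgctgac

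Of the 6 windows, 3 windows held an E-box. It began 78 bases before the start of Coq10b, 45 bases before that of Lonrf3 and 51 bases before the second start of Tspan4. The RefSeq start of Lonrf3 and the second of Tspan4 lie 56 and 1155 bases inside the annotated genes. The E-boxes of Lonrf3 and Tspan4 thus lie within annotated exons and not before the gene. Over all 32851 windows of the table, 6.02% held CACGTG. Coq10b also had a D-box, TTATGTAA on the minus strand and thus TTACATAA as printed, which began 162 bases before the start, against 0.819% of all windows. The other motifs had no match in the 6 windows, and their shares over all windows were 3.85% for CACGTT, 0.113% for TTACGTAA, 1.55% for TGACGTCA and 5.84% for ACANNNTGT. The windows of Noct, of Usp2 and of the first start of Tspan4 held none of the motifs, which says only that these letters are not in those windows. The RefSeq starts of Usp2 and Noct lie 17953 and 3252 bases inside the annotated genes, so windows before their other starts were not searched.

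The genes differed widely in level. Levels are given as CPM, the count of a gene scaled to the total of its library and TMM-normalized. Set per kilobase of annotated exon, the Control mean was 10.2 ± 1.32 CPM per kb for Usp2 and 5.25 ± 1.31 CPM per kb for Tspan4 (SD, n = 4). The other 4 genes lay lower, at 1.35 ± 0.19 CPM per kb for Lonrf3, 0.96 ± 0.24 for Coq10b, 0.74 ± 0.18 for Wee1 and 0.64 ± 0.15 for Noct (SD, n = 4). Usp2 and Tspan4 stood apart from each other and from the rest, whereas the neighbours from Lonrf3 down to Noct overlapped between mice. In the 20CBD group the means were 17.9 CPM per kb for Usp2, 5.87 for Tspan4, 1.32 for Coq10b, 1.04 ± 0.12 for Noct, 0.95 ± 0.17 for Wee1 and 0.90 ± 0.18 for Lonrf3 (SD, n = 4). The mean of Lonrf3 had thus moved from the third place to the last, although its mice overlapped those of Wee1 and Noct.

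**Figure D1:**
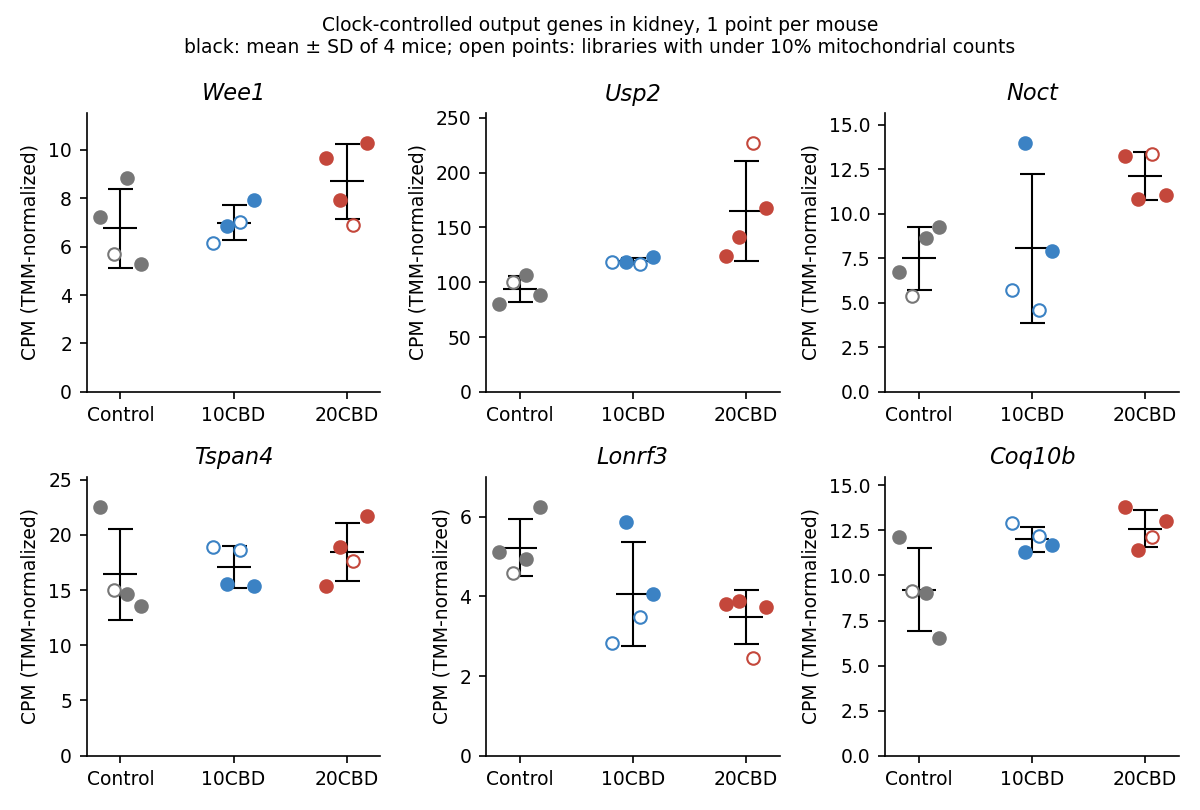
CPM (TMM-normalized, linear axes from 0) of the 6 output genes in each mouse of the Control, 10CBD and 20CBD groups, with the mean ± SD of 4 mice in black and open points for the 4 libraries with under 10% of counts on mitochondrial genes. The Usp2 points of the 3 groups do not overlap, although the highest of 10CBD and the lowest of 20CBD nearly meet. Those of Noct in 20CBD lie above Control and those of Lonrf3 in 20CBD lie below Control.

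Usp2, a deubiquitinating enzyme that removes ubiquitin from proteins of the clock and of the cell cycle, was the member that rose. It lies at chr9:43978264-44006924 (GRCm39, ENSMUSG00000032010). Its level in the Control mice, in the order of their numbers, was 80.2, 101, 107 and 87.9 CPM. The level was 118, 119, 116 and 123 CPM in the 10CBD mice and 124, 141, 227 and 168 CPM in the 20CBD mice. The groups followed each other without overlap, with all 10CBD mice above all Control mice and all 20CBD mice above all 10CBD mice, and the 20CBD group was spread most widely. Between the doses the gap was very small, from 122.97 CPM (2095 counts) in 10CBD mouse 4 to 123.7 CPM (2112 counts) in 20CBD mouse 1. At 20 mg CBD/kg b.w. Usp2 was 1.75-fold higher than in Control (log2 fold change 0.81, SE 0.16, 95% interval 0.46 to 1.16), with an edgeR adjusted p of 0.0771 over all genes tested. The exact permutation test gave p = 0.0286, two-sided, the smallest that 4 mice against 4 allow. In bulk RNA, a change in the number of cells of a type and a change in RNA per cell cannot be told apart.

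The call of Usp2 lay close to the threshold of 0.1. It was lost, at log2 fold changes of 0.75, 0.84, 0.88 and 0.78, without Control mouse 1, 2, 3 or 4 (edgeR adjusted p of 0.277, 0.154, 0.108 and 0.273), and at 0.81 without 10CBD mouse 3 or 4 (0.117 and 0.112). It was also lost, at 0.88, 0.62 and 0.80, without 20CBD mouse 2, 3 or 4 (0.127, 0.122 and 0.219). It remained called without 10CBD mouse 1 or 2 and, at 0.92 with an adjusted p of 0.0449, without 20CBD mouse 1. The log2 fold change was positive in all 12 of these fits. With only the Control and 20CBD mice in the fit it was 0.81 with an edgeR adjusted p of 0.183, so the call was lost there too.

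**Figure D2:**
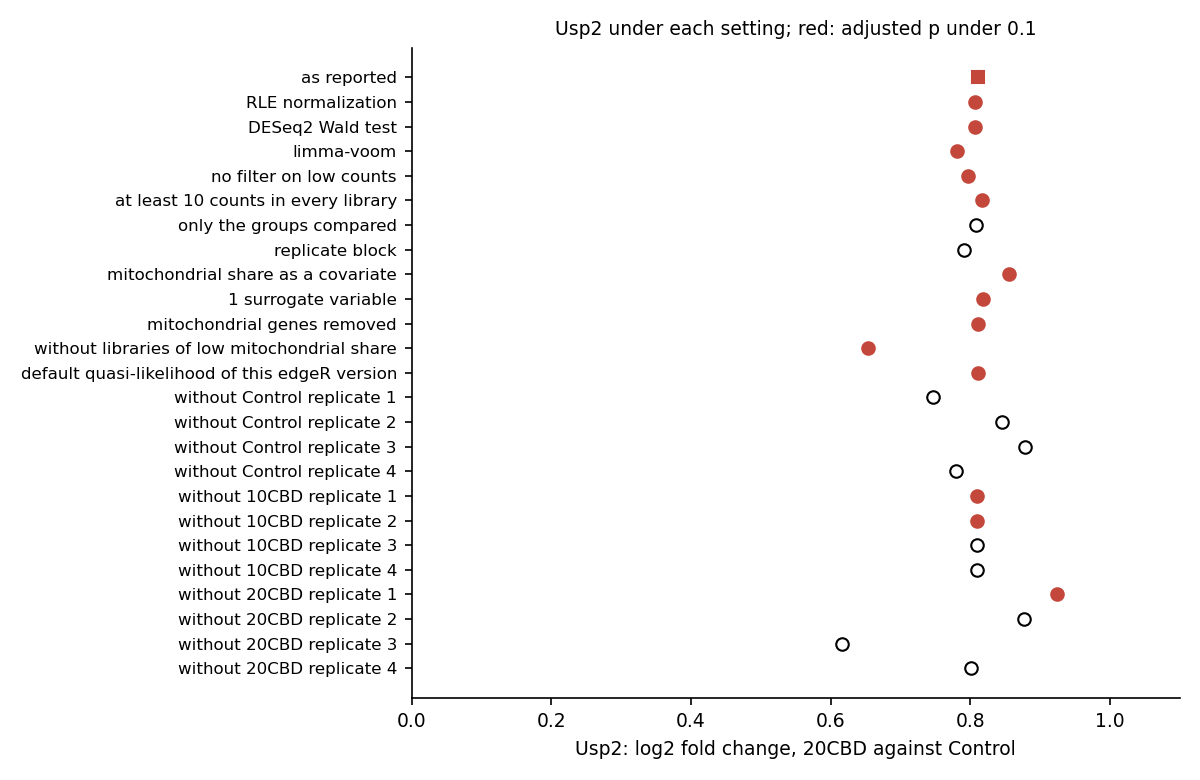
Log2 fold change of Usp2 in 20CBD against Control (x axis) as reported and under each other setting named on the y axis, with filled red points for an adjusted p under 0.1. Values run from 0.62, without 20CBD mouse 3, to 0.92, without 20CBD mouse 1, and in 9 of the 12 fits that leave out a mouse the gene is no longer called.

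At 10 mg CBD/kg b.w. the log2 fold change of Usp2 was 0.34 (SE 0.16, 95% interval -0.01 to 0.69), with an edgeR adjusted p of 0.870. Between the doses it was 0.47 (95% interval 0.12 to 0.82), which also missed the threshold (edgeR adjusted p = 0.758), although all 4 20CBD mice lay above all 4 10CBD mice (exact permutation p = 0.0286, two-sided). Without 20CBD mouse 3 the difference between the doses was 0.28. Annotated exons of Usp2 are shared with the antisense genes Gm39325 (9.68% of its exon bases) and Gm49380 (2.88%), which had at most 4 and 3 counts per library. The 4 markers of the proximal tubule, summed, were lower in treated mice than in Control (5840 to 7481 CPM in Control, 4620 to 5691 in 10CBD and 4563 to 4995 in 20CBD), and none of them was at 0; their part in the level of Usp2 was not tested.

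Noct encodes nocturnin, a phosphatase known for its high amplitude over the day and its action on dinucleotide cofactors in metabolism (ENSMUSG00000023087, chr3:51128616-51159065). Its level was 6.72, 5.39, 8.66 and 9.24 CPM in Control and 13.2, 10.8, 13.4 and 11.1 CPM in 20CBD. The 10CBD mice had 5.75, 14.0, 4.61 and 7.92 CPM. All 20CBD mice lay above all Control mice, while the 10CBD group reached from the lowest to the highest value of all 12 mice. The log2 fold change at 20 mg was 0.69 (SE 0.28, 95% interval 0.10 to 1.29), with an unadjusted p of 0.0252, an edgeR adjusted p of 0.507 and an exact permutation p of 0.0286. At 10 mg it was 0.09 (SE 0.28, edgeR adjusted p = 0.980), and without 10CBD mouse 2, the highest, it was -0.31, and -0.04 without Control mouse 2. Between the doses it was 0.60 (95% interval 0.01 to 1.20, edgeR adjusted p = 0.785): the groups overlapped through that mouse, and without it the difference was 1.0. An antisense gene, Gm65789, shares 5.5% of the exon bases of Noct and was not analysed here.

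Lonrf3, a RING finger protein with a LON domain whose function is little known, was the only one of the 6 genes with a negative log2 fold change at either dose (ENSMUSG00000016239, chrX:35592006-35626038). Its level was 5.12, 4.58, 4.94 and 6.25 CPM in Control, 2.83, 5.87, 3.48 and 4.05 CPM in 10CBD and 3.81, 3.89, 2.46 and 3.73 CPM in 20CBD. Every 20CBD mouse lay below every Control mouse, as did 3 of the 4 10CBD mice, while 10CBD mouse 2 lay within the Control range. The log2 fold change was -0.59 at 20 mg (SE 0.23, 95% interval -1.08 to -0.09, unadjusted p = 0.0234), with an edgeR adjusted p of 0.503 and an exact permutation p of 0.0286. At 10 mg it was -0.37 (SE 0.23, 95% interval -0.86 to 0.12), with an edgeR adjusted p of 0.893, and it ran from -0.60 without 10CBD mouse 2 to -0.23 without 10CBD mouse 1.

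The counts behind Lonrf3 were low, 41 to 122 per library. They also moved with the share of counts on mitochondrial genes, which ranged from 3.53 to 23.4% and was under 10% in 4 libraries (Control 2, 10CBD 1, 10CBD 3 and 20CBD 3). The lowest Lonrf3 value of each group was in such a library, and log2 CPM in these 4 was on average 0.31 below the group mean, against 0.16 above it in the other 8. For Noct the same 4 libraries averaged 0.33 below the group mean, although the 20CBD library among them was the highest of its group, and without these libraries Noct differed between the doses by 0.11 in place of 0.60. With that share as a covariate Lonrf3 was called at 20 mg (log2 fold change -0.74, edgeR adjusted p = 0.0444), in a fit that called 1386 genes in place of 52.

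Coq10b, a mitochondrial protein that binds coenzyme Q and is needed for its work in respiration, had its higher values at both doses (ENSMUSG00000025981, chr1:55091923-55115640). The Control mice had 12.1, 9.16, 9.02 and 6.53 CPM. The 10CBD mice had 12.9, 11.3, 12.2 and 11.7 CPM, and the 20CBD mice had 13.8, 11.4, 12.1 and 13.0 CPM. Both treated groups lay in a narrow band above 3 of the 4 Control mice and overlapped the Control mouse with the highest value. The log2 fold change was 0.38 at 10 mg (SE 0.16, 95% interval 0.03 to 0.73, unadjusted p = 0.0348) and 0.45 at 20 mg (SE 0.16, 95% interval 0.10 to 0.80, unadjusted p = 0.0155). The edgeR adjusted p was 0.830 and 0.467, and the exact permutation p was 0.0857 at each dose. Between the doses the difference was 0.07 (95% interval -0.28 to 0.42). A pseudogene on the same strand, Gm17971, shares 5.67% of the exon bases of Coq10b and had 7 to 24 counts per library, and the antisense genes Gm71177 (not analysed here) and E330011M16Rik share 3.76% and 3.64%, so reads of those stretches are uncertain.

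Wee1, the kinase that holds back entry into mitosis by phosphorylating Cdk1, was not called at either dose (ENSMUSG00000031016, chr7:109721148-109747101). It had 7.22, 5.68, 8.81 and 5.27 CPM in Control, 6.14, 6.86, 7.0 and 7.92 CPM in 10CBD and 9.66, 7.90, 6.90 and 10.3 CPM in 20CBD. The 3 groups overlapped, with 2 of the 4 20CBD mice above every Control mouse. On the log2 scale Wee1 differed from Control by 0.05 at 10 mg (95% interval -0.36 to 0.45, edgeR adjusted p = 0.981), a value whose sign turned without Control mouse 2 or 4 or 10CBD mouse 4, and 0.36 at 20 mg (95% interval -0.04 to 0.76, edgeR adjusted p = 0.639). Between the doses it was 0.32 (95% interval -0.09 to 0.72).

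Tspan4, a tetraspanin of the cell membrane known from migrasomes, the vesicles that moving cells leave behind, was not called either (ENSMUSG00000025511, chr7:141055138-141073340). It had 22.6, 15.0, 14.7 and 13.5 CPM in Control, 18.9, 15.6, 18.6 and 15.3 CPM in 10CBD and 15.4, 18.9, 17.6 and 21.7 CPM in 20CBD. The groups overlapped fully, and the highest value of all was in a Control mouse. On the log2 scale Tspan4 differed from Control by 0.06 at 10 mg (95% interval -0.30 to 0.42) and 0.16 at 20 mg (95% interval -0.20 to 0.52), with edgeR adjusted p of 0.980 and 0.860. The 10 mg value was -0.03 without Control mouse 4, and the 20 mg value was 0.36 without Control mouse 1, 0.08 without Control mouse 4 and 0.07 without 20CBD mouse 4. Its exons overlap the antisense genes Polr2l (23.8% of the exon bases) and Chid1 (9.32%), and the strand setting of the counting is not given in the sources used here, so reads there are uncertain. Polr2l was at 50.04 CPM in Control and 57.0 in 20CBD (log2 fold change 0.19, edgeR adjusted p = 0.884), and Chid1 at 22.5 and 19.4 CPM (-0.22, edgeR adjusted p = 0.772).

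**Figure D3:**
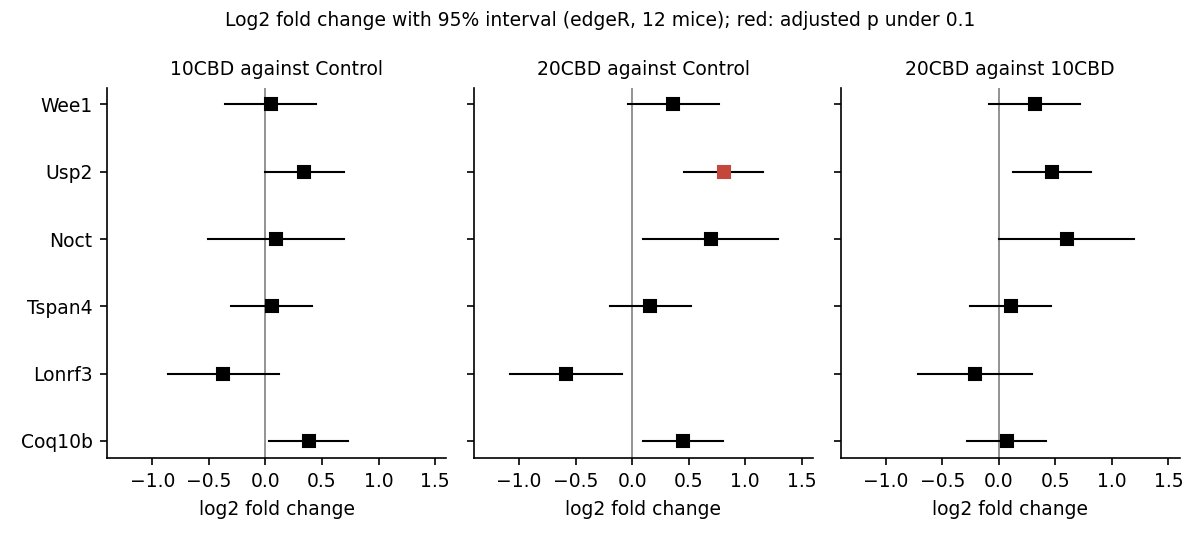
Log2 fold change (x axis) of the 6 output genes (y axis) in 10CBD against Control, 20CBD against Control and 20CBD against 10CBD, as squares with 95% intervals from the edgeR fit to 12 mice, red where the adjusted p was under 0.1. Usp2 in 20CBD, at 0.81, is the red square, and the intervals of Noct, Lonrf3 and Coq10b in that panel also leave out 0.

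Counted together, 0 of the 6 genes were called at 10 mg CBD/kg b.w., where 0.0291% of all genes tested were called by edgeR. Because the genes were chosen with earlier results of these data known, these counts beside all genes are a description, not an independent test. At 20 mg 1 of 6 was called (Usp2, higher), against 0.303% of all genes. An unadjusted p under 0.05 was reached at 10 mg by 1 of 6 (Coq10b), against 5.67% of all genes, and at 20 mg by 4 of 6 (Usp2, Noct and Coq10b higher, Lonrf3 lower), against 8.45%. The mice of the groups did not overlap for 1 of 6 at 10 mg (Usp2), against 3.19% of all genes in either direction, and for 3 of 6 at 20 mg (Usp2, Noct and Lonrf3), against 5.3%.

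The median log2 fold change of the 6 genes was 0.07 at 10 mg and 0.41 at 20 mg, against 0.01 for all genes tested at each dose, and the median absolute log2 fold change was 0.22 and 0.52, against 0.15 and 0.16. The comparisons share the Control mice, and these medians too come from genes chosen with earlier results of these data known. For the mean of both doses edgeR called 0 of 6, against 0.14% of all genes, and 3 of 6 had an unadjusted p under 0.05 (Usp2 0.58 and Coq10b 0.42 on the log2 scale, Lonrf3 -0.48), against 7.04%. Between the doses 0 of 6 were called, as were 0% of all genes. The unadjusted p was under 0.05 there for 2 of 6 (Usp2 and Noct, both higher in 20CBD), against 6.31% of all genes, and the doses did not overlap for 1 of 6 (Usp2), against 3.1%.

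Dbp, the D-box binding factor driven directly by the clock, was compared mouse by mouse with the 6 genes. Its level was 1.43, 2.19, 2.92 and 2.88 CPM in Control, 14.9, 12.9, 19.6 and 15.3 CPM in 10CBD and 22.4, 22.1, 24.5 and 26.9 CPM in 20CBD. The Control values rest on low counts, 34, 46, 58 and 53. The 3 groups did not overlap, and the log2 fold change was 2.75 at 10 mg and 3.35 at 20 mg, far beyond any of the 6 output genes. The antisense gene Sphk2 shares 15.5% of the exon bases of Dbp, so reads there are uncertain. Sphk2 was at 34.8 CPM in Control, 36.7 in 10CBD and 34.7 in 20CBD. Because the groups separate on Dbp, a relation pooled over all mice would only repeat the group differences, so the relation was taken within groups. Among the mice of 1 group, 20CBD mouse 3 with the highest Usp2 had less Dbp than mouse 4, and mouse 4, with the highest Dbp, came next in Usp2.

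Within groups no slope on Dbp was called for any of the 6 genes (edgeR adjusted p of 1.00 for each), as for 0% of the 17162 genes tested. An unadjusted p under 0.05 was reached by 0 of 6, against 1.84% of all genes, and a limma-voom fit also called 0. In log2 per log2 of Dbp the slope was 0.29 for Usp2 (SE 0.25, 95% interval -0.25 to 0.83), 0.05 for Wee1 (SE 0.29) and -0.20 for Noct (SE 0.45). It was -0.44 for Coq10b (SE 0.22), -0.36 for Tspan4 (SE 0.24) and -0.15 for Lonrf3 (SE 0.36). The sign of 4 of these slopes turned when 1 mouse was left out: to -0.26 and -0.02 for Wee1 (Control mouse 3, 20CBD mouse 4), to 0.23 and 0.18 for Noct (10CBD mouse 2, 10CBD mouse 3), to 0.31 for Tspan4 (Control mouse 1) and to 0.10 for Lonrf3 (10CBD mouse 2). Those of Usp2 and Coq10b kept their sign, although Coq10b was at -0.07 without Control mouse 1.

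Over the 12 mice with group means removed, 6 relations were computed, and Pearson's r was 0.363 for Usp2 (exact permutation p within groups 0.171), 0.0167 for Wee1 (0.971), -0.128 for Noct (0.707), -0.447 for Tspan4 (0.324), -0.141 for Lonrf3 (0.623) and -0.615 for Coq10b (0.271). Spearman's rho, in the same order, was 0.333, 0.4, 0.0667, -0.133, -0.4 and 0 (exact permutation p of 0.382, 0.285, 0.924, 0.779, 0.285 and 1). The mice farthest from the median of Dbp were Control 1, at 0.632 below its group on the log2 scale, and Control 3, at 0.349 above it. Without them r was 0.102 for Usp2, 0.0841 for Wee1, -0.417 for Noct, 0.386 for Tspan4, -0.237 for Lonrf3 and -0.24 for Coq10b. The sign for Tspan4 thus rested on those mice. Over the 8 treated mice alone, as a description, r was 0.234 for Usp2, 0.175 for Wee1, -0.764 for Noct, 0.58 for Tspan4, -0.472 for Lonrf3 and 0.285 for Coq10b, so Coq10b turned sign there as well, and 10CBD mouse 2 held both the lowest Dbp and the highest Noct and Lonrf3 of its group. In the Control group, mouse 1 held both the lowest Dbp and the highest Tspan4 and Coq10b of its group.

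**Figure D4:**
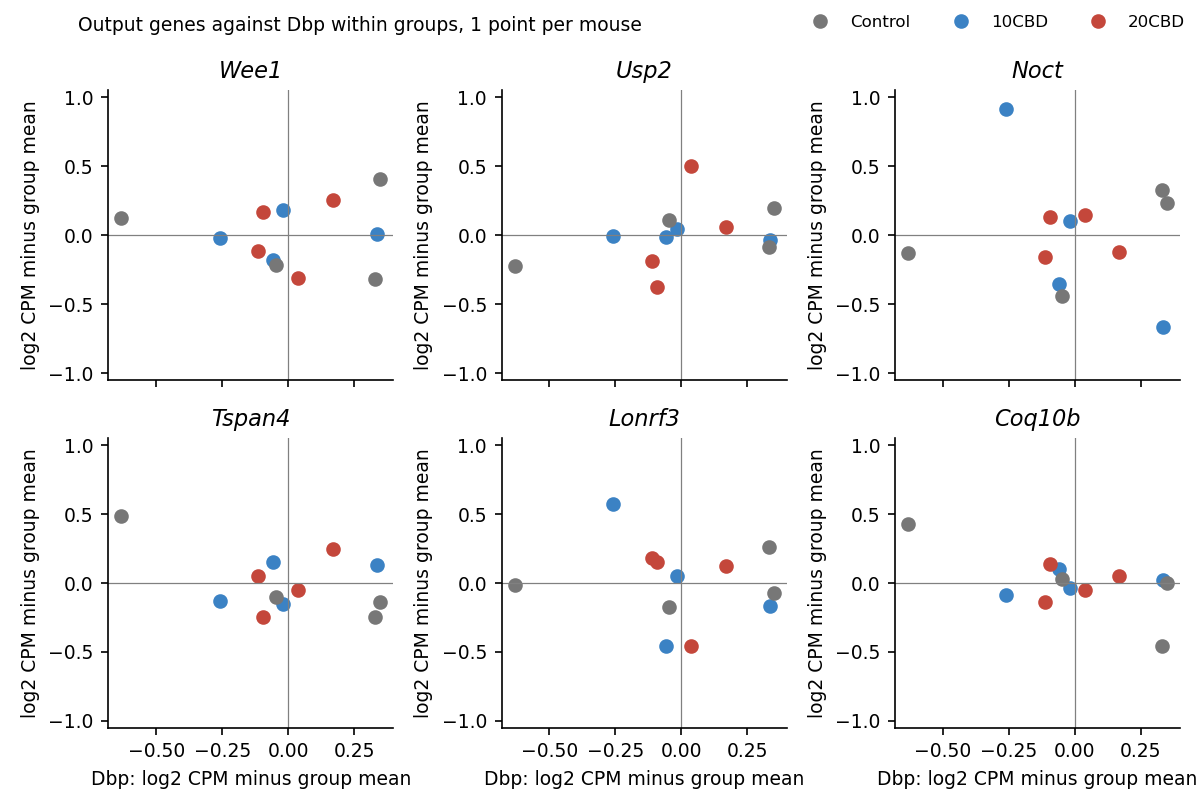
Log2 CPM of each output gene (y axes) against log2 CPM of Dbp (x axes), each minus the mean of its group, with 1 point per mouse coloured by group and grey lines at 0. The points scatter on both sides of 0 in each panel, and the Control mouse at -0.632 on the x axis lies high for Tspan4 and Coq10b.

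Of 19 genes of the core clock and its D-box factors tested, edgeR called 6 higher and 4 lower at 20 mg, and 2 higher (Dbp and Per3) and 1 lower (Npas2) at 10 mg. Of all genes tested 0.303% were called at 20 mg and 0.0291% at 10 mg. Per3, a member of the Per family, rose by 1.39 on the log2 scale at 20 mg (10.2 CPM in Control, 26.7 in 20CBD, edgeR adjusted p = 0.00124) and Bhlhe41, a repressor that binds E-boxes, by 1.46 (1.54 and 4.27 CPM, edgeR adjusted p = 0.0144). The median log2 fold change of this list was 0.33 at 20 mg, since its members moved both ways. The 20CBD mice lay above all Control mice for 9 genes of the list and below them for 6, against 5.3% of all genes without overlap. The study named several of these genes as altered in the same mice, so this list is not independent of them.

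A second list held 15 other output genes of the clock and of glucocorticoids, of which 14 were tested. At 20 mg 1 of them was called, Alas1, the first enzyme of haem synthesis, with 66.0 CPM in Control, 96.2 in 10CBD and 109 in 20CBD (log2 fold change 0.72, SE 0.14, edgeR adjusted p = 0.0567). The other 13 did not pass the test, 6 of the 14 had an unadjusted p under 0.05 on the higher side and 1 on the lower side, and the median was 0.17. Of all genes tested 0.303% were called and 8.45% had an unadjusted p under 0.05 at that dose. At 10 mg none of the 14 was called (Alas1 0.54, edgeR adjusted p = 0.679), and the unadjusted p was under 0.05 for 1 higher and 1 lower, against 5.67% of all genes.

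Of 13 genes of the same protein families 11 were tested, 0 were called at either dose, and the median log2 fold change at 20 mg was 0.02. Of all genes tested 0.303% were called at 20 mg and 0.0291% at 10 mg. A count of 0 therefore says little about this list or those that follow. Among them Coq10a, the paralogue of Coq10b, had 0.26 (edgeR adjusted p = 0.650) and Lonrf1, a paralogue of Lonrf3, 0.23 (edgeR adjusted p = 0.685). At 10 mg Lonrf1 was at 0.33 (10.5 CPM in Control, 13.3 in 10CBD, unadjusted p = 0.0217, edgeR adjusted p = 0.812), with all 10CBD mice above all Control mice. The groups did not overlap at that dose for 3.19% of all genes, in either direction. Of 10 partners of Wee1 and genes of the mitotic cell cycle 8 were tested, 0 were called, and the median was -0.25, with -0.73 for Ccnb2, a mitotic cyclin at 0.83 CPM in Control (edgeR adjusted p = 0.609), and -0.26 for Cdc25a, the phosphatase that opposes Wee1 (edgeR adjusted p = 0.704). At 10 mg the median of that list was -0.35, and Cdk1, named here after its values were seen, was at -0.66 (1.13 CPM in Control, 0.716 in 10CBD, unadjusted p = 0.0339, edgeR adjusted p = 0.830), with all 10CBD mice below all Control mice, against the same 3.19% of all genes. The counts of Cdk1 were low, 17 to 30 per library in Control and 11 to 18 in 10CBD. At 20 mg Cdk1 was at -0.25 and the groups overlapped. All 11 genes of coenzyme Q synthesis were tested and 0 were called, with a median of -0.08 and 1 positive value. The lowest p of that list were those of Pdss1, which builds the side chain, at -0.30 (edgeR adjusted p = 0.680) and of Coq8a, an atypical kinase of the pathway, at -0.20 (edgeR adjusted p = 0.857).

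**Figure D5:**
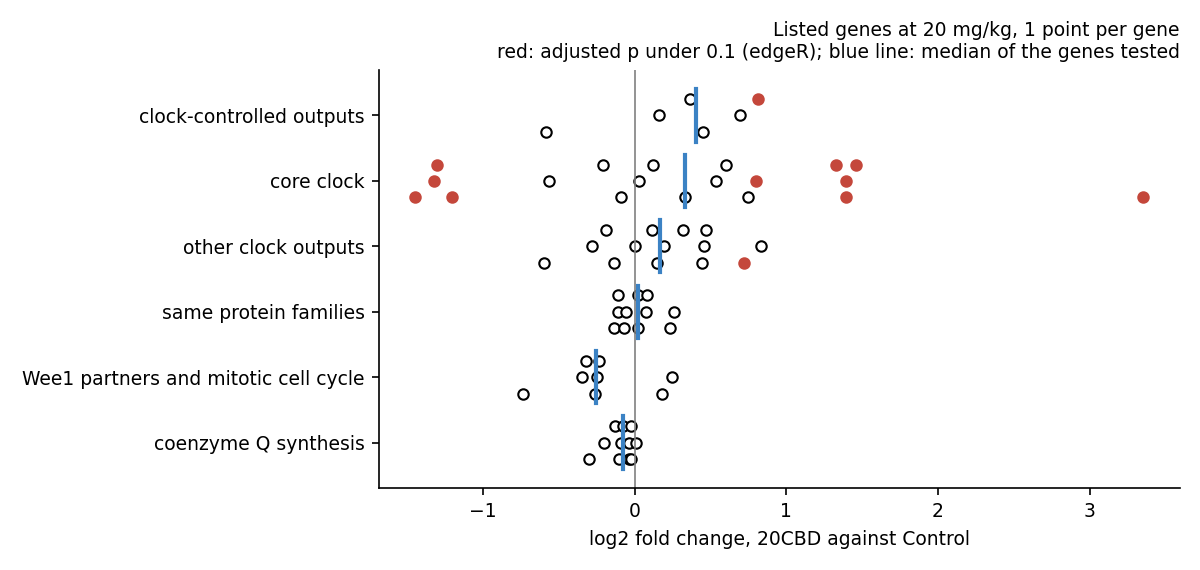
Log2 fold change in 20CBD against Control (x axis) of the genes tested in each list (y axis, 1 point per gene), filled red where the edgeR adjusted p was under 0.1, with the median of the list as a blue line. The medians run from -0.25 for the Wee1 partners to 0.41 for the 6 output genes, and 1 output gene, 10 core clock genes and 1 other clock output are red.

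The patterns of the 6 genes over the 12 mice were alike to differing degrees. As a measure of likeness, the root mean square difference of z-scored log2 CPM over the 12 mice was used, which is 0 for the same pattern. Between members it ran from 0.804 for Tspan4 and Coq10b to 1.78 for Usp2 and Lonrf3. Wee1 and Coq10b were at 0.887, Usp2 and Noct at 0.945, and Usp2 and Coq10b at 0.983. Pairs with Lonrf3 lay at 1.32 to 1.78, and pairs without it at 0.804 to 1.45. A value for unrelated genes was not computed. Among 14678 other genes, the nearest to Usp2 were E230001N04Rik (0.348) and Ciart (0.35), a repressor of the core clock with 2.28, 3.73 and 6.01 CPM in the 3 groups (log2 fold change 1.40 at 20 mg, edgeR adjusted p = 0.0580). The nearest to Noct were Igsf6 (0.408) and Gm49839 (0.463), and the nearest to Lonrf3 were Ccdc127 (0.244) and Nelfa (0.298). Wee1 was nearest to Fitm1 (0.541) and Gm44117 (0.563), Tspan4 to Lrrc56 (0.502) and A130014A01Rik (0.552), and Coq10b to Rpl6l (0.483) and Gas5 (0.509). Of these 12 neighbours Ciart was the one called at 20 mg, against 0.303% of all genes tested. The neighbours were picked as the closest genes over the same 12 mice, with the group differences left in. A neighbour of Usp2 was thus picked in part for a like rise at 20 mg, and its call is no separate result.

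No listed marker of a kidney cell type was at 0 in all 12 libraries. Of 25 markers of kidney and other cell types tested, edgeR called 0 at 10 mg and 1 at 20 mg, against 0.0291% and 0.303% of all genes. The called marker was Slc5a2, the glucose transporter of the proximal tubule (log2 fold change -0.61, adjusted p = 0.0820). Markers lower at 20 mg but not called included Lrp2 (-0.76), Calb1 (-0.91) and Slc12a3 (-0.48), with edgeR adjusted p of 0.173, 0.168 and 0.391. Among the collecting duct markers Aqp2 (0.23) and Aqp3 (0.14) were positive and Atp6v1b1 (-0.26) was negative. Among the endothelial markers Pecam1 (0.16) and Cdh5 (0.12) were positive and Kdr (-0.33, edgeR adjusted p = 0.419) was negative. All 20CBD mice lay below all Control mice for Kdr, against 5.3% of all genes without overlap in either direction. The sum of the distal tubule genes Slc12a3 and Calb1 was 605 to 1016 CPM in Control, 646 to 794 in 10CBD and 558 to 631 in 20CBD. The summed level of 4 adipocyte genes was 6.15 to 83.3 CPM in Control, 0.632 to 29.1 in 10CBD and 0.240 to 16.5 in 20CBD, and that of 4 immune genes stayed between 11.4 and 16.6 CPM. At 20 mg each adipocyte gene had a negative log2 fold change, from -2.51 for Plin1 to -3.42 for Adipoq, and none was called. The part of these cell types in the levels of the 6 output genes was not tested.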

How the data were processed

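RNA from the kidneys of 12 mice, 4 per group, was measured by RNA-Seq, and groups were taken from the sample titles. The authors used Flexbar for trimming, STAR (2.7.5c) for mapping to GRCm39 and htseq-count (1.99.2) for counting, and the deposited files hold raw whole-number counts for 57180 Ensembl genes. The annotation release, the strand setting and the use of molecular identifiers are not given in the sources used here. Unassigned reads (12.1 to 19.9% without a gene) were left out. Symbols and positions came from GENCODE vM39, which matched 99% of identifiers and 99.95% of counts.

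Genes were kept by filterByExpr (17163 genes), normalized by TMM and fitted with the quasi-likelihood test of edgeR (4.0.16, R 4.3.3) with a mean per group over 12 libraries. P-values were adjusted by Benjamini-Hochberg over all genes tested, and an adjusted p under 0.1 was called. The study used the same threshold but with DESeq2 tests, so the calls here are not on its own criterion. Log2 CPM used a prior count of 2. Exact permutation tests of mean log2 CPM were two-sided (70 arrangements for 4 against 4, 13824 within groups for Dbp). The steps were tested on simulated counts. Depth was 15417867 to 23532088 counts per library, and repeated reads make low counts less certain than counting error alone would. No library pair was identical (0 pairs). Replicate numbers did not pair the mice: correlations of deviations between same-numbered mice ran from -0.33 to 0.317, and 4 of 12 were above 0.1.

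The 6 genes and all lists were chosen with earlier results of these data known. Beyond them, the called genes of each list were named, at most 3 by smallest p at 20 mg and otherwise the 2 of smallest p, together with the 2 genes most like each member, among those with a mean of at least 1 CPM, and genes overlapping a member's exons. Alternatives were RLE factors, DESeq2 (1.42.0), limma-voom (limma 3.58.1), 2 other filters, only the groups compared, a replicate block, the mitochondrial share as covariate, 1 surrogate variable (sva 3.50.0), removal of mitochondrial genes or of libraries with a low mitochondrial share, a threshold of 0.05, only the treated mice (slopes), leaving out each library, and, added after seeing the data, the default quasi-likelihood method of this edgeR version.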

Additional observations from a re-analysis of the deposited data

Results flagged for a closer look

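Lonrf3 in 20CBD mouse 3 stood apart from the other mice of its group, at 2.46 CPM (41 counts) against 3.73 to 3.89 CPM. On the log2 scale its gap to the nearest mouse was 0.905 of the range of the group, above Dixon's 95% critical value for 4 samples. This was 1 of 21 groups tested (the 6 output genes and Dbp in 3 groups), and chance alone gives about 1 in 20. The library had 5.54% of its counts on mitochondrial genes, against 14 to 23.4% in the others of its group, and the part of that share in the Lonrf3 value was not tested. Without this mouse the log2 fold change of Lonrf3 at 20 mg was -0.46.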

How the results depend on the processing

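The number of output genes called at 20 mg (1, Usp2) was 2 without a filter on low counts (Usp2 and Noct, among 416 genes called in place of 52), 2 with the mitochondrial share as covariate (Usp2 and Lonrf3, among 1386) and 3 with 1 surrogate variable (Usp2, Noct at 0.65 and Lonrf3 at -0.66, among 560). It was 0 with only the groups compared (Usp2 adjusted p = 0.183), 0 at an adjusted p under 0.05, and 0 to 1 with each library left out, and the cause was not tested. For both doses together it was 1 (Usp2) in place of 0 with DESeq2, without a filter, with the mitochondrial share and with the surrogate variable. DESeq2 called 182 genes at 20 mg, 40 at 10 mg, 136 for both doses and 12 between the doses, against 52, 5, 24 and 0 with edgeR. Without a filter these were 331 at 10 mg, 393 for both doses and 256 between the doses, with the mitochondrial share 15, 276 and 62, and with the surrogate variable 20, 255 and 0. Without the 4 libraries of low mitochondrial share 107 genes were called at 20 mg, Usp2 among them (0.65, adjusted p = 0.0475). The comparison of both doses uses all groups, so a fit of only the groups compared was not run for it.

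With the replicate number as a block, 0 output genes were called at 20 mg (Usp2 0.79, adjusted p = 0.115, among 27 genes called), and the slopes on Dbp of Wee1 (-0.13) and Usp2 (-0.23) turned sign. The numbers do not pair the mice.

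Other changes of sign were all in values that were not called. The log2 fold change at 10 mg was -0.037 for Noct with limma-voom and -0.14 for Tspan4 without the libraries of low mitochondrial share (-0.00030 for both doses). With the 8 treated mice alone the slope on Dbp was 0.54 for Tspan4 and 0.15 for Coq10b. With each library left out, log2 fold changes at 10 mg ran from -0.055 to 0.20 for Wee1, -0.31 to 0.29 for Noct and -0.028 to 0.25 for Tspan4, and that of Lonrf3 between the doses from -0.35 to 0.014. Slopes ran from -0.26 to 0.37 for Wee1, -1.0 to 0.23 for Noct, -0.51 to 0.31 for Tspan4 and -0.50 to 0.10 for Lonrf3. The default quasi-likelihood method called the same number of output genes in each comparison. Counts of 41 to 122 limit Lonrf3, and 4 mice per group limit every test.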
